A study of Mus musculus with 12 samples.

Results

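The clustered protocadherin genes of the mouse stand in 3 neighbouring clusters on chromosome 18, called alpha, beta and gamma. Members were the rows of the deposited expression tables whose symbol was Pcdha, Pcdhac, Pcdhb, Pcdhga, Pcdhgb or Pcdhgc followed by a number. This gave 58 rows with 57 different symbols, out of 52636 genes: 14 in the alpha cluster, 22 in the beta cluster and 22 in the gamma cluster. Levels were measured by RNA sequencing of the hippocampus in 12 wild-type C57BL6/J mice aged 18 weeks. There were 4 groups of 3 mice each: low-extinction males, high-extinction males, low-extinction females and high-extinction females. Extinction is the waning of learned fear on renewed exposure, and the labels do not say how a mouse was scored as low or high. Every library was a mouse of its own, all of 1 inbred strain, and no group carried a transgene or received a treatment that the labels name.

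Clustered protocadherins are cell-surface proteins of neurons that bind the same isoforms on a facing membrane. Most promoters of the clusters are switched on in only some neurons, by a choice that depends on CTCF, cohesin and DNA methylation, so that each neuron shows its own set of isoforms and can tell its own branches from those of other cells. In the alpha and gamma clusters, each member has a variable exon of its own for the extracellular and transmembrane domains, joined to constant exons that all members of that cluster share, whereas beta members are made of a variable exon alone. The last alpha and gamma members, called C-type (Pcdhac1, Pcdhac2, Pcdhgc3, Pcdhgc4 and Pcdhgc5), are regulated apart from the others and are expressed more broadly. Pcdhac2 is known for the spacing of serotonergic axons, and Pcdhgc4 for the survival of interneurons.

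In the GENCODE M21 annotation of the GRCm38 build, all 58 members lay on the plus strand of chromosome 18. The alpha cluster ran from 36930184 to 37187661, the beta cluster from 37264938 to 37524479 and the gamma cluster from 37661793 to 37841873. All alpha members shared 2860 exonic bases and all gamma members shared 2116, which left a median of 53.4% of an alpha member and 44.7% of a gamma member in exons shared with other members. In the beta cluster 20 of 22 members shared no exonic base, and Pcdhb21 and Pcdhb22 shared 455 bases where the end of the first overlaps the start of the second. A read from a constant exon does not tell which member it came from, so a level given for an alpha or gamma member rests on how the authors' software divided such reads. The gene Pcdhgb8 was annotated as a polymorphic pseudogene and the other 57 as protein coding. The symbol Pcdha11 stood on 2 rows, ENSMUSG00000007440.10 and ENSMUSG00000102206.5. The first starts at 37005203, next to the start of Pcdha10 in RefSeq, and the second lies at the RefSeq Pcdha11.

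Hippocampal and general neuronal markers were present in all libraries. The 10 markers of hippocampal neurons all reached 1 TPM on average (transcripts out of a fixed total, an abundance corrected for transcript length), and none of the 3 markers of serotonergic neurons did. The 10 hippocampal markers summed to 1741 to 2160 TPM, and Camk2a alone had 1125 to 1425 TPM of that. The summed choroid plexus markers were the most uneven, at 58.7 to 978 TPM in low-extinction males, 334 to 3483 TPM in high-extinction males, 104 to 1089 TPM in low-extinction females and 25.5 to 1266 TPM in high-extinction females. A ribosomal RNA-derived transcript, AY036118, took 4.39% to 14.998% of all TPM in a library, and TPM keeps no record of sequencing depth, which is therefore unknown. In tissue RNA of this kind, fewer cells of a type cannot be told apart from less RNA per cell.

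Nearly the whole family was expressed in the hippocampus. Averaged over the 12 libraries, 56 of 58 members reached 1 TPM, or 96.6%, against 35.1% of all 52636 genes. These were 13 of 14 alpha members, 21 of 22 beta members and 22 of 22 gamma members. The 2 below 1 TPM were Pcdha8, at 0.213 to 0.878 TPM, and Pcdhb1, at 0.0456 to 0.445 TPM. Their highest male libraries, at 0.373 TPM for Pcdha8 and 0.164 TPM for Pcdhb1, lay just above their lowest female libraries, at 0.341 and 0.156 TPM. At a mean of 0.5 TPM the count was again 56, at 2 TPM it was 47, and 47 members were at 1 TPM or more in each of the 12 libraries. Only 10 members averaged 10 TPM or more, and the median member mean was 4.28 TPM.

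The summed levels of the 3 clusters did not overlap in any library. Summed over its members, the alpha cluster had 38.8 ± 0.952 TPM in low-extinction males, 41.4 ± 4.18 in high-extinction males, 41.9 ± 2.77 in low-extinction females and 44.5 ± 1.58 in high-extinction females (SD, n = 3 each). The beta cluster had 91.4 ± 4.02 TPM in low-extinction males, 91.4 ± 2.01 in high-extinction males, 105.4 ± 2.76 in low-extinction females and 104.3 ± 6.08 in high-extinction females (SD, n = 3 each). The gamma cluster had 314.8 ± 23.6 TPM in low-extinction males, 319.6 ± 13.0 in high-extinction males, 341.5 ± 16.2 in low-extinction females and 322.1 ± 16.3 in high-extinction females (SD, n = 3 each). Gamma members thus held 69.9% of the family's TPM, beta members 21.1% and alpha members 8.98%. Of the gamma cluster's TPM, 51.2% on average came from 5 members described below. Those 5 had 6.67 to 24.6 of the authors' normalized counts per TPM. The other 17 had a median of 89.1 in males and 87.1 in females, so the gamma share depends on the measure. Within each sex the low and high groups overlapped in every cluster's sum, and between the lowest and highest of 12 libraries the sums differed 1.23-fold (alpha), 1.24-fold (beta) and 1.22-fold (gamma).

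**Figure D1:**
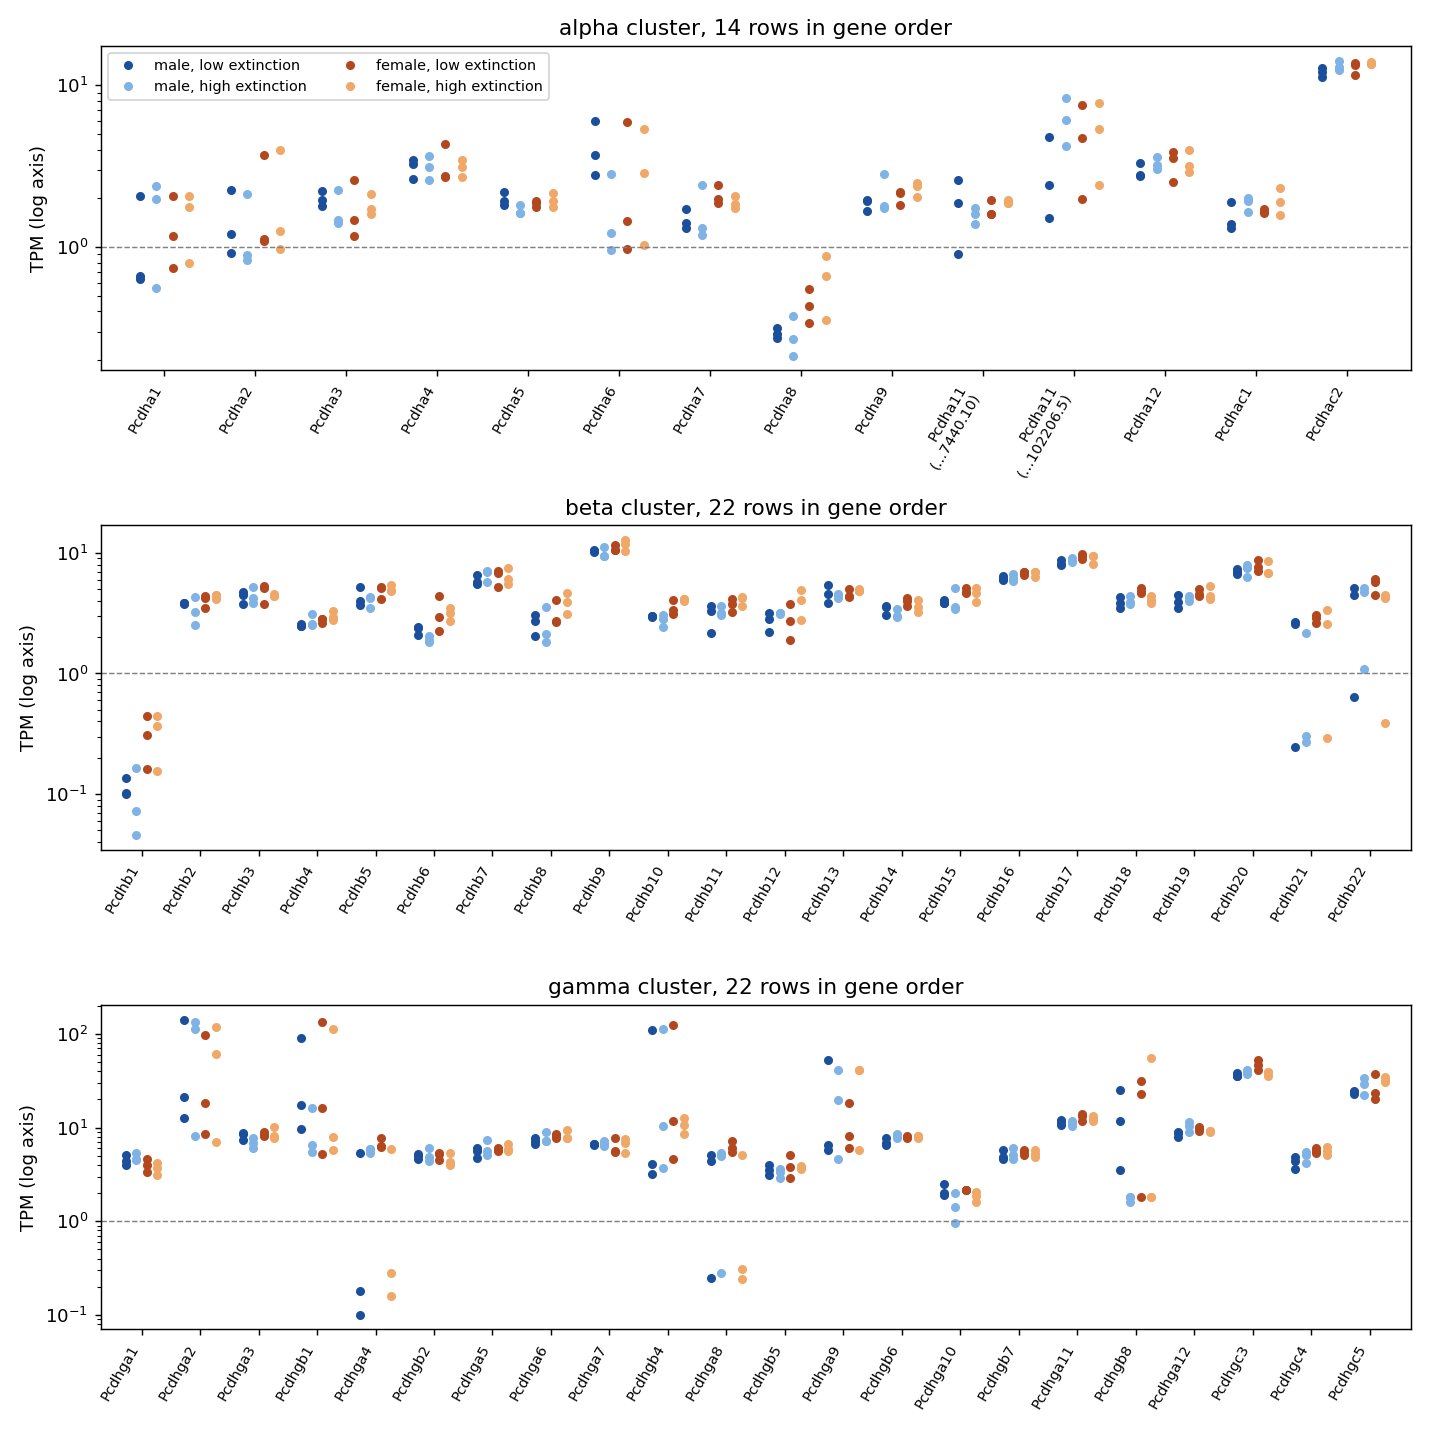
TPM (log axis) of each clustered protocadherin in each of 12 hippocampal libraries, members in their order along the chromosome, with 3 mice per group as points and a dashed line at 1 TPM. Most members form a tight column of points, and 56 of 58 average above the line, whereas Pcdhga2, Pcdhgb1, Pcdhgb4, Pcdhga9, Pcdhgb8, Pcdhga4, Pcdhga8, Pcdhb21 and Pcdhb22 spread more than 10-fold over the 12 libraries.

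Among alpha members the C-type Pcdhac2 led. It had 12.8, 11.4 and 12.2 TPM in low-extinction males, against 13.0, 12.5 and 14.2 TPM in high-extinction males. In low-extinction females it had 13.3, 11.6 and 13.7 TPM, against 13.6, 14.0 and 13.5 TPM in high-extinction females. The values lay close together with overlap in both sexes, and Pcdhac2 made up 31.2 ± 1.45% of the alpha cluster's TPM (SD, n = 12). It was one of the steadiest members, with a highest library 1.25-fold above the lowest. The summed markers of serotonergic neurons, the cells in which Pcdhac2 is best known, lay at 0.515 to 1.93 TPM in the same libraries. The other C-type alpha member, Pcdhac1, had 1.90, 1.39 and 1.31 TPM in low-extinction males, against 1.92, 1.65 and 2.02 TPM in high-extinction males. In females Pcdhac1 had 1.72, 1.63 and 1.66 TPM at low extinction and 2.32, 1.90 and 1.58 TPM at high extinction. It averaged 4.21% of its cluster, so the C-type label alone did not go with a high level.

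The 12 other alpha members, whose promoters belong to the randomly chosen set, had means from 0.412 to 4.78 TPM with a median of 1.84 TPM. The highest by TPM was the second row named Pcdha11 (ENSMUSG00000102206.5), at 2.43, 1.504 and 4.77 TPM in low-extinction males, against 4.22, 6.15 and 8.41 TPM in high-extinction males. In low-extinction females it had 1.99, 4.72 and 7.61 TPM, against 2.44, 7.74 and 5.36 TPM in high-extinction females. Its libraries spread 5.59-fold, with low and high values in each group of females. Pcdha12 followed at 2.80, 2.74 and 3.33 TPM in low-extinction males, against 3.61, 3.04 and 3.22 TPM in high-extinction males. In females Pcdha12 had 3.55, 2.53 and 3.87 TPM at low extinction and 2.93, 3.97 and 3.19 TPM at high extinction. Its 12 values lay between 2.53 and 3.97 TPM. By the authors' mean normalized counts, however, the second Pcdha11 row stood below Pcdha8, at 18.6 against 38.6.

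Beta members lack a constant cytoplasmic domain. Their median level was 4.05 TPM, and 21 of 22 lay between 1.92 and 10.7 TPM on average. Pcdhb9 was highest, with 10.1, 10.6 and 10.4 TPM in low-extinction males, against 9.48, 9.46 and 11.1 TPM in high-extinction males. In low-extinction females Pcdhb9 had 10.6, 10.5 and 11.6 TPM, against 12.7, 11.9 and 10.3 TPM in high-extinction females. It averaged 10.9 ± 0.638% of the beta cluster (SD, n = 12), and its groups overlapped in both sexes. Pcdhb17, the next highest, had 7.87, 8.05 and 8.76 TPM in low-extinction males, against 8.32, 8.54 and 9.08 TPM in high-extinction males, and 9.34, 8.98 and 9.73 TPM in low-extinction females, against 9.48, 9.37 and 8.07 TPM in high-extinction females. Pcdhb20 had 6.72, 6.94 and 7.31 TPM in low-extinction males, against 6.35, 7.92 and 7.55 TPM in high-extinction males, and 7.60, 7.14 and 8.74 TPM in low-extinction females, against 8.49, 6.75 and 6.85 TPM in high-extinction females. Pcdhb9, Pcdhb17 and Pcdhb20 stood in the same order by mean in each of the 4 groups. The steadiest member of the family was Pcdhb16, at 5.81 to 6.99 TPM in all 12 libraries.

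In the gamma cluster the 3 C-type members were high or intermediate. Pcdhgc3 had 35.2, 35.04 and 38.2 TPM in low-extinction males, against 39.0, 41.0 and 37.5 TPM in high-extinction males. In low-extinction females Pcdhgc3 had 52.4, 46.8 and 41.0 TPM, against 39.6, 35.4 and 39.4 TPM in high-extinction females. Low-extinction females thus lay above high-extinction females without overlap, while in males the groups overlapped. Pcdhgc5 had 23.7, 22.5 and 24.4 TPM in low-extinction males, against 33.8, 22.4 and 29.5 TPM in high-extinction males. In females Pcdhgc5 had 23.2, 20.1 and 37.5 TPM at low extinction and 32.1, 30.8 and 34.6 TPM at high extinction. The 3 low-extinction males lay close together within the range of the high-extinction males, and the female groups overlapped as well. Pcdhgc4, the member tied to neuron survival, had 3.62, 4.85 and 4.44 TPM in low-extinction males, against 4.21, 5.55 and 5.10 TPM in high-extinction males, and 5.67, 5.39 and 6.06 TPM in low-extinction females, against 5.61, 6.19 and 5.09 TPM in high-extinction females. Its mean of 5.15 TPM was well below that of the other 2 gamma C-type members, Pcdhgc3 at 40.0 and Pcdhgc5 at 27.9 TPM.

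In 5 other gamma members the TPM changed widely from library to library: Pcdhga2, Pcdhgb1, Pcdhgb4, Pcdhga9 and Pcdhgb8. The authors' counts for these 5 are set beside the TPM below. In each library the highest of the 5 was Pcdhga2, Pcdhgb1 or Pcdhgb4. Pcdhga2, the highest on average, had 21.1, 141.2 and 12.6 TPM in low-extinction males, against 8.07, 113.3 and 134.3 TPM in high-extinction males. In low-extinction females Pcdhga2 had 18.3, 97.2 and 8.53 TPM, against 6.96, 60.5 and 118.9 TPM in high-extinction females. High and low libraries of Pcdhga2 occurred in all 4 groups. Pcdhgb1 had 9.61, 17.2 and 91.1 TPM in low-extinction males, against 16.3, 5.49 and 6.45 TPM in high-extinction males. In females Pcdhgb1 had 5.27, 16.1 and 134.3 TPM at low extinction and 112.5, 5.72 and 7.91 TPM at high extinction. By TPM, Pcdhgb1 was thus high in 3 libraries and at 17.2 TPM or less in the other 9. Pcdhgb4 had 108.4, 3.22 and 4.09 TPM in low-extinction males, against 113.7, 10.5 and 3.70 TPM in high-extinction males. In females Pcdhgb4 had 123.5, 11.8 and 4.67 TPM at low extinction and 10.6, 8.47 and 12.7 TPM at high extinction. The 3 libraries high in Pcdhgb4 were not those high in Pcdhgb1. Pcdhga9 ranged from 4.58 to 52.3 TPM and Pcdhgb8 from 1.61 to 55.5 TPM.

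The sum of these 5 members was nevertheless steady. It averaged 166.2 ± 13.4 TPM over the 12 libraries (SD), with a lowest library of 144.3 and a highest of 185.1 TPM, and it made up 47.3% to 55.7% of the gamma cluster's TPM. The sum was 171.2 ± 19.9 TPM in low-extinction males, 160.8 ± 14.7 in high-extinction males, 169.2 ± 7.96 in low-extinction females and 163.6 ± 14.3 in high-extinction females (SD, n = 3 each). In each library, 1 to 3 of the 5 members reached 30 TPM, and the highest of them held 35.4% to 81.02% of the sum. Pcdhga2 was highest in 6 libraries, Pcdhgb1 in 3 and Pcdhgb4 in 3. Each member's highest value was 11.4 to 38.4 times its lowest, whereas the sum differed 1.28-fold. The 5 members were noticed after their values were seen.

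**Figure D2:**
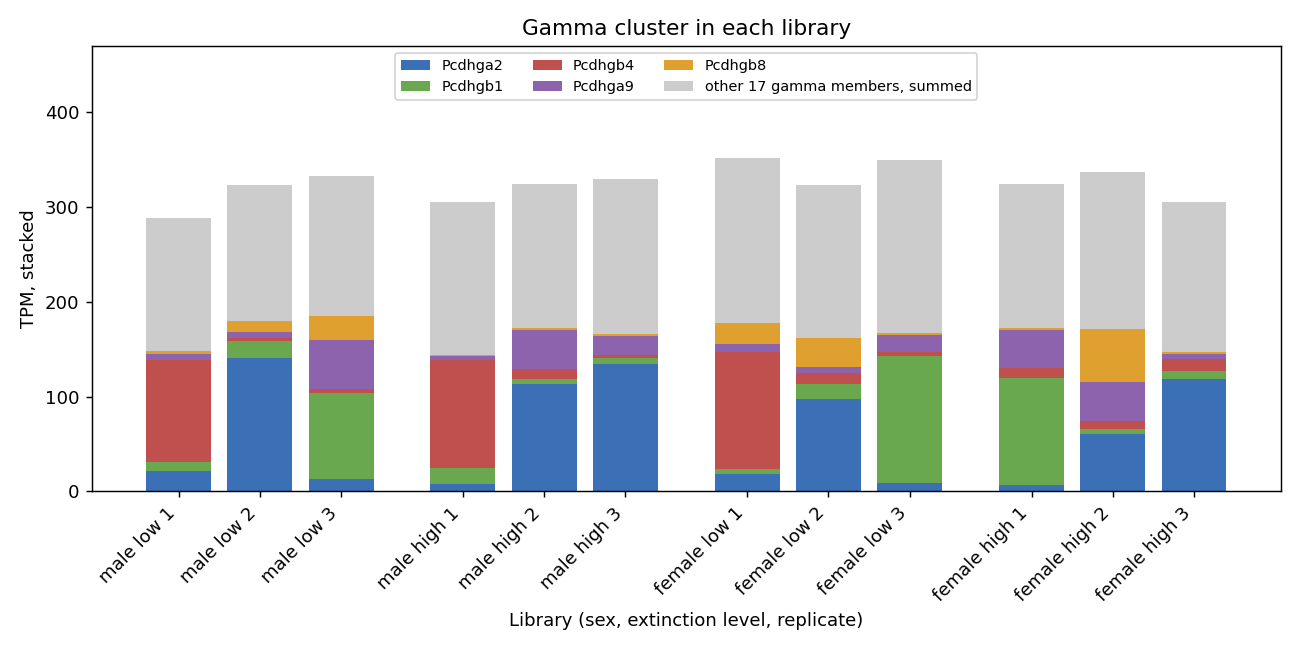
Stacked TPM of the gamma cluster in each of 12 libraries, 3 mice per group, with 5 members in colour and the other 17 summed in grey. The total and the coloured sum (144.3 to 185.1 TPM) are alike in all libraries, while the member that fills the coloured part is Pcdhga2 in 6, Pcdhgb1 in 3 and Pcdhgb4 in 3 libraries.

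What the 5 members share is the annotated end of their last exon. In GENCODE M21 it lay at position 37841870 for these 5, and at 37841873, 3 bases further, for the other 17 gamma members. All 22 members have the constant exons in common, and the labels do not name the annotation the authors used. The other 17 had a median highest-over-lowest ratio of 1.54, close to the 1.55 of all 18499 genes at a mean of 1 TPM or more. Over all those genes, 8.05% had a ratio of at least 4 and 3.07% a ratio of at least 10.

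Of the remaining members, 4 more varied over 10-fold, and these share exon sequence with a single neighbour beyond the constant exons. Pcdhga4, which shares 1038 bases with Pcdhgb1, ranged 76.2-fold, and Pcdhga8, which shares 108 bases with Pcdhgb4, ranged 29.7-fold. Pcdhb21 and Pcdhb22, with their 455 shared bases, ranged 13.5-fold and 15.7-fold. Pcdhb21 had 0.248, 2.66 and 2.56 TPM in low-extinction males, against 0.270, 2.17 and 0.302 TPM in high-extinction males, and 2.62, 3.08 and 2.89 TPM in low-extinction females, against 2.57, 3.34 and 0.292 TPM in high-extinction females. Pcdhb22 had 5.14, 0.637 and 4.48 TPM in low-extinction males, against 5.10, 1.09 and 4.73 TPM in high-extinction males, and 4.47, 5.70 and 6.09 TPM in low-extinction females, against 4.47, 0.387 and 4.24 TPM in high-extinction females. No library was low in both, since the 4 libraries with Pcdhb21 under 0.5 TPM all had Pcdhb22 at 4.24 TPM or more. All 6 members with at least 100 such shared bases had ratios of 13.5 or more.

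The other 47 members at a mean of 1 TPM had a median ratio of 1.55, 4 of them (8.51%) reached 4, and none reached 10. Those 4 were all alpha members with more than 1 annotated transcript: Pcdha6 at 6.30-fold, the second Pcdha11 row at 5.59-fold, Pcdha2 at 4.80-fold and Pcdha1 at 4.27-fold. Among alpha members at a mean of 1 TPM, 4 of 5 with several annotated transcripts and 0 of 8 with a single one reached a ratio of 4. Beta and gamma members of these 47 with more than 1 annotated transcript did not reach it. Pcdhb8, Pcdhga1 and Pcdhgb5, with 2 transcripts each, ranged 2.55-fold, 1.71-fold and 1.80-fold. These groupings were made after the values were seen, and the part that the division of shared reads had in them was not tested.

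**Figure D3:**
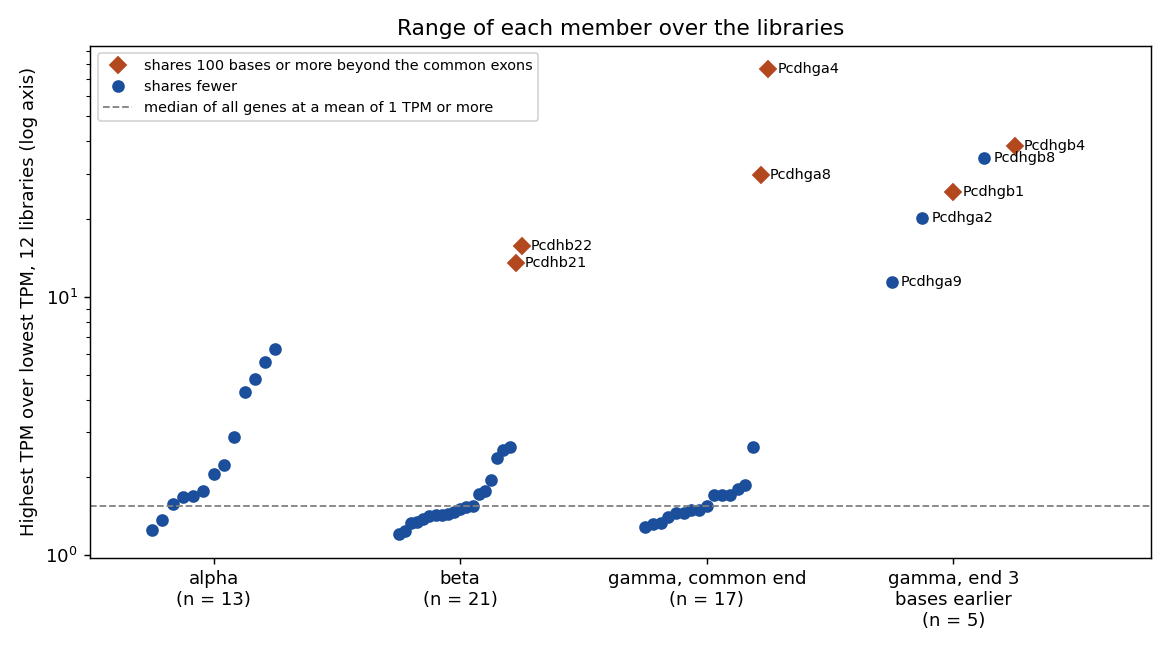
Highest over lowest TPM across 12 libraries (log axis) for each of the 56 members at a mean of 1 TPM or more, split by cluster, with diamonds for members that share at least 100 exonic bases with another member beyond the constant exons and a dashed line at 1.55, the median of all such genes. The 5 gamma members that end 3 bases earlier lie between 11.4 and 38.4, and every diamond lies at 13.5 or above.

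The authors' second kind of value, the mean normalized count per gene, ranked the members otherwise. Counts in the authors' deposited table came to 6.67 to 24.6 per TPM for the 5 variable gamma members. The median was 89.1 in males and 87.1 in females for the other 17 gamma members. By mean count over the sexes, the authors' deposited table put Pcdhgc5 first, at 3921, and Pcdhgc3 second, at 1675. These counts were then divided here by the kilobases of exon that lie in no other gene in GENCODE M21. Such bases numbered 1821 for Pcdhgc3 and 4606 for Pcdhgc5. By this count per kilobase Pcdhgc3 was highest, at 919.9, followed by Pcdhgc5 at 851.3, Pcdhac2 at 495.0, Pcdhga11 at 470.8 and Pcdhga3 at 287.8. The C-type members Pcdhgc3, Pcdhgc5 and Pcdhac2 therefore led by this measure, while Pcdhgc4 had rank 20 and Pcdhac1 rank 44, whereas by TPM Pcdhga2 stood above Pcdhgc3 and Pcdhgb1 and Pcdhgb4 above Pcdhgc5. By the same measure, taken from counts in the authors' deposited table, Pcdhga2 had 222.0 per kilobase, rank 10 of the family, and Pcdhgb4 had 71.5. The 2 members under 1 TPM also had few counts in the authors' deposited table, with 38.6 for Pcdha8 and 11.5 for Pcdhb1 averaged over the sexes. Pcdhga10 has no exonic base outside other annotated genes, since the antisense gene Gm26672 covers the rest, and had 21.2 counts in the authors' deposited table beside a mean of 1.90 TPM. Pcdha4, with 404 such bases, had 21.7 counts in the authors' deposited table beside 3.16 TPM. Of the 5768 exonic bases of Pcdha4, 2410 lay in plus-strand genes outside the family. The second Pcdha11 row had 18.6 counts in the authors' deposited table beside 4.78 TPM, fewer per TPM than any of the 5 variable gamma members. The labels do not say whether the counts are stranded, and without strand the reads of Pcdhga10 and Gm26672 cannot be told apart. Exons of antisense genes also overlap Pcdha4, Pcdha6, the second Pcdha11 row, Pcdha12, Pcdhb12, Pcdhga1, Pcdhga7, Pcdhga8, Pcdhgb7, Pcdhga11, Pcdhga12 and Pcdhgc3. The kilobases used here leave out bases covered by antisense exons. The counts per kilobase of these members, Pcdhgc3 and Pcdhga11 among them, and their ranks therefore depend on the strand setting.

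**Figure D4:**
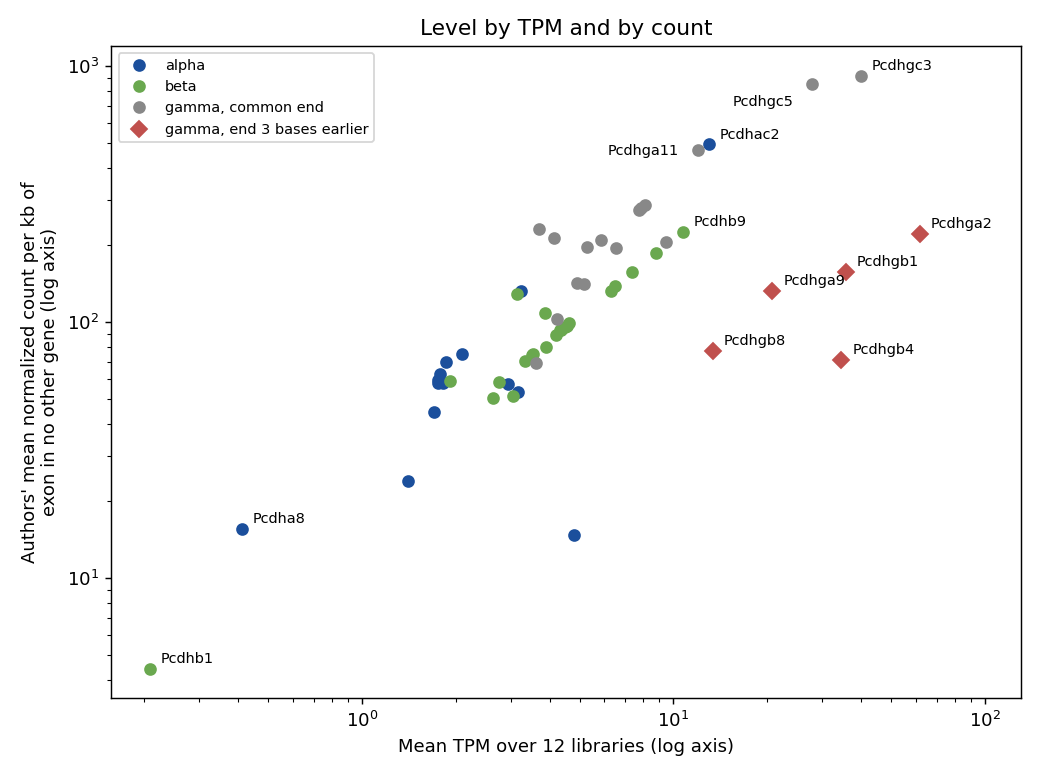
The authors' mean normalized count per kilobase of exon in no other gene (log axis) against mean TPM over 12 libraries (log axis), a point per member for the 57 members that have such bases. Most members lie along a common band from Pcdhb1 to Pcdhgc3, and the 5 gamma members that end 3 bases earlier stand to the right of it, with 6.67 to 24.6 counts per TPM, as does the second Pcdha11 row, at 14.7 counts per kilobase beside 4.78 TPM.

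The comparison of low with high extinction asked whether any member's RNA differed with how well a mouse extinguished fear. No member passed the test in either sex. On log2(TPM + 1), limma called 0 of 56 tested members in males (background 0% of 18303 genes), 0 of 56 in females (background 0.0107% of 18668 genes), 0 of 56 for the average of both sexes (background 0% of 18499 genes) and 0 of 56 for the male change minus the female change (background 0.00541% of 18499 genes), at a Benjamini-Hochberg adjusted p under 0.05. At an unadjusted limma p under 0.05 there were 4, 3, 1 and 3 members in these 4 comparisons, out of 1151, 1648, 1424 and 1466 genes. The authors' deposited table called 0 of 58 members in males, where the background was 0.504% of genes, and 0 of 58 in females, where it was 0.857%. In each sex 2 members had an unadjusted DESeq2 p under 0.05. The share of all genes at that p is not given here, so nothing is read from these 2. An adjusted p was missing for 1 member in males and 5 in females in the authors' deposited table. With few genes called in all, these counts of 0 are near the background.

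The largest member differences in the TPM were not matched in size by the count comparison. All fold changes taken from the authors' deposited table were multiplied by -1 so that they read low minus high extinction. Pcdhga4 had 0.180, 5.36 and 0.101 TPM in low-extinction males, against 5.39, 5.97 and 5.85 TPM in high-extinction males. In low-extinction females Pcdhga4 had 7.69, 6.16 and 6.39 TPM, against 0.277, 5.92 and 0.158 TPM in high-extinction females. It was close to 0 in 2 low-extinction males and 2 high-extinction females, and in each sex the groups did not overlap, by a small gap (5.36 against 5.39 TPM in males and 6.16 against 5.92 TPM in females). Its log2 change was -1.74 (SE 0.62) in males and 1.83 (SE 0.65) in females, with limma adjusted p of 0.766 and 0.541 and two-sided exact permutation p of 0.1 in each, the smallest that 20 assignments allow. Without replicate 2 of the low-extinction males the male change was called (limma adjusted p = 0.0091), and without replicate 2 of the high-extinction females the female change was called (limma adjusted p = 0.0085). Its log2 change in the authors' deposited table was -0.24 (SE 0.15, DESeq2 adjusted p = 0.811) in males and 0.11 (SE 0.13, DESeq2 adjusted p = 0.882) in females.

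Pcdhga8 had 5.04, 0.248 and 4.42 TPM in low-extinction males, against 5.32, 4.92 and 0.280 TPM in high-extinction males. In low-extinction females it had 5.45, 5.99 and 7.14 TPM, against 0.308, 5.05 and 0.241 TPM in high-extinction females, where the groups did not overlap. Its log2 change was -0.08 (SE 0.78) in males and 1.74 (SE 0.59) in females, with a limma adjusted p of 0.54 in females that was 0.0085 without replicate 2 of the high-extinction females. The authors' deposited table gave Pcdhga8 a log2 change of 0.18 (SE 0.13, DESeq2 adjusted p = 0.72) in females. Pcdhgb8 had 3.56, 11.8 and 25.03 TPM in low-extinction males, against 1.61, 1.80 and 1.81 TPM in high-extinction males, with no overlap. In females Pcdhgb8 had 22.7, 31.1 and 1.80 TPM at low extinction and 1.83, 55.5 and 1.82 TPM at high extinction, with full overlap. Its limma adjusted p was 0.739 in males, and the authors' deposited table gave a log2 change of 0.22 (SE 0.20, DESeq2 adjusted p = 0.977) there. For Pcdhga2 the log2 change on TPM averaged over both sexes was -0.57 (SE 0.95) and for Pcdhgb1 it was 0.92 (SE 0.89), with limma adjusted p of 0.946 and 0.879. In the authors' deposited table, the changes of all 5 variable gamma members lay between -0.05 and 0.22 in both sexes. Their standard errors there were 0.12 to 0.20, against limma standard errors of 0.55 to 1.51 on TPM within each sex. The wide spread of these 5 was thus seen in TPM and not in the count comparison, and its cause was not tested.

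Among the C-type members, Pcdhgc3 differed most between the sexes' changes. Its log2 change was -0.11 (SE 0.08) in males and 0.28 (SE 0.10) in females, a difference of -0.39 (SE 0.13, limma adjusted p = 0.534). For Pcdhgc3 the authors' deposited table held -0.09 (SE 0.09) in males and -0.04 (SE 0.08) in females, so the sign in females was not the same in both sources. Pcdhgc5 had an average log2 change of -0.28 (SE 0.14, limma adjusted p = 0.689), with a mean of 23.5 ± 0.948 TPM at low extinction and 28.6 ± 5.74 TPM at high extinction in males, and 26.9 ± 9.28 TPM at low extinction and 32.5 ± 1.93 TPM at high extinction in females (SD, n = 3 each). Pcdhac2 had an average log2 change of -0.10 (SE 0.06, limma adjusted p = 0.753), and a two-sided exact permutation over 400 assignments gave p = 0.05. In the authors' deposited table the Pcdhac2 log2 change was -0.11 (SE 0.09) in males and -0.17 (SE 0.08, DESeq2 p = 0.0246, DESeq2 adjusted p = 0.405) in females. Pcdhac1 averaged -0.16 (SE 0.09, limma adjusted p = 0.773) and Pcdhgc4 -0.07 (SE 0.09, limma adjusted p = 0.91).

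Of the other alpha members, Pcdha6 had 3.70, 6.05 and 2.79 TPM in low-extinction males, against 2.85, 0.960 and 1.22 TPM in high-extinction males. In females Pcdha6 had 5.94, 1.45 and 0.979 TPM at low extinction and 2.88, 1.03 and 5.39 TPM at high extinction. In males only the highest of the high-extinction libraries lay above the lowest of the low-extinction libraries, and in females the groups overlapped throughout. The log2 change of Pcdha6 in males was 0.97 (SE 0.31, limma adjusted p = 0.759), against 0.02 (SE 0.28) in the authors' deposited table. The second Pcdha11 row had a log2 change of -0.94 (SE 0.33, limma adjusted p = 0.76) in males and averaged -0.53 (SE 0.31) over both sexes. For it the authors' deposited table gave -0.28 (SE 0.66) in males, from a mean of only 17.03 counts. Pcdha12 averaged -0.07 (SE 0.10, limma adjusted p = 0.931).

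Of the beta members, Pcdhb12 had 2.82, 3.17 and 2.21 TPM in low-extinction males, against 3.11, 3.19 and 3.18 TPM in high-extinction males. In females Pcdhb12 had 1.88, 3.75 and 2.71 TPM at low extinction and 4.94, 2.80 and 4.09 TPM at high extinction. Its average log2 change was -0.28 (SE 0.14, limma adjusted p = 0.697), the smallest p among beta members. Pcdhb12 in the authors' deposited table had -0.47 (SE 0.21, DESeq2 p = 0.0207, DESeq2 adjusted p = 0.376) in females and 0.03 (SE 0.21) in males. Pcdhb18 had 5.13, 4.61 and 4.81 TPM in low-extinction females, against 4.05, 4.37 and 3.85 TPM in high-extinction females, with no overlap. In males Pcdhb18 had 3.51, 3.86 and 4.28 TPM at low extinction and 3.90, 3.78 and 4.36 TPM at high extinction, with overlap. Its male change minus its female change was -0.24 (SE 0.14, limma adjusted p = 0.709). Pcdhb21 averaged 0.52 (SE 0.37, limma adjusted p = 0.813), against 0.17 (SE 0.17) in males and 0.01 (SE 0.17) in females in the authors' deposited table. Pcdhb9, Pcdhb17 and Pcdhb20 had average changes of -0.02 (SE 0.07), -0.0046 (SE 0.06) and 0.02 (SE 0.08).

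Of the gamma members, Pcdhga10 had the smallest p on average. It had 2.03, 2.52 and 1.92 TPM in low-extinction males, against 0.956, 1.43 and 1.99 TPM in high-extinction males. In low-extinction females Pcdhga10 had 2.15, 2.17 and 2.14 TPM, against 1.61, 2.05 and 1.86 TPM in high-extinction females, with no overlap. The average log2 change was 0.26 (SE 0.11, limma adjusted p = 0.593; two-sided exact permutation p = 0.01 over 400 assignments, not adjusted for the 56 members tested). The authors' deposited table gave Pcdhga10 0.59 (SE 0.58) in males and -0.10 (SE 0.49) in females, from a mean of 20.1 and 22.4 counts. The 2 members with an unadjusted DESeq2 p under 0.05 in males in the authors' deposited table were Pcdhga3, at 0.28 (SE 0.12, DESeq2 adjusted p = 0.471), and Pcdhga12, at -0.27 (SE 0.11, DESeq2 adjusted p = 0.469). On TPM the male log2 changes were 0.23 (SE 0.12, limma adjusted p = 0.853) for Pcdhga3 and -0.24 (SE 0.12, limma adjusted p = 0.835) for Pcdhga12.

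Complete separation of the groups was about as common in the family as elsewhere, or rarer. In males 3 members lay with all low-extinction libraries above all high-extinction libraries (Pcdha5, Pcdhb6 and Pcdhgb8), where the background was 4.2% of tested genes, and 2 lay below (Pcdhga4 and Pcdhgb6), where it was 7.28%. In females 5 members lay above (Pcdhb18, Pcdhga4, Pcdhga8, Pcdhga10 and Pcdhgc3), where the background was 14.3%, and 0 lay below, where it was 1.98%. With 56 tested members, these counts are near or under the background shares. Pcdhgb6 had 6.55, 6.86 and 7.64 TPM in low-extinction males, against 7.77, 8.04 and 8.43 TPM in high-extinction males. Pcdhb6 had 2.41, 2.09 and 2.39 TPM in low-extinction males, against 1.83, 2.03 and 1.91 TPM in high-extinction males. Both had narrow gaps, and the groups of Pcdha5 all but touched at 1.81 TPM.

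By direction alone, the count comparison in females leaned towards lower levels at low extinction. For females the authors' deposited table held 44 negative and 14 positive members, with a median log2 change of -0.11, against 53.8% negative and a median of -0.01 over 18275 genes at 1 TPM. The alpha cluster had the lowest median, with 13 of 14 members negative in the authors' deposited table, all but Pcdha12, and a median change of -0.22. Among beta members 15 of 22 were negative in the authors' deposited table with a median of -0.08, and among gamma members 16 of 22 with a median of -0.06. Alpha members share constant exons, and the comparison rests on the same 6 mice for each of them, so these are not independent counts. In males the authors' deposited table had a positive sign for 29 members and a negative one for 29, with a median of -0.0018.

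On TPM the direction in females depended on the scaling. As deposited, 28 tested members were positive and 28 negative in females, while 12892 of 18668 genes were positive with a median log2 change of 0.06. After centring each library on its median the split was 17 positive and 39 negative, after quantile normalization 12 and 44, and with ribosomal RNA-derived genes left out 23 and 33. Alpha members were 2 positive and 11 negative as deposited, with a median of -0.09. In males 21 members were positive and 35 negative, and 26 and 30 after median centring. Averaged over the sexes 28 were positive and 28 negative, and 16 and 40 after quantile normalization. The male change was above the female change in 24 members and below it in 32 as deposited, in 39 and 17 after median centring and in 42 and 14 after quantile normalization, while the median of all genes moved from -0.09 as deposited to 0.02 after centring.

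**Figure D5:**
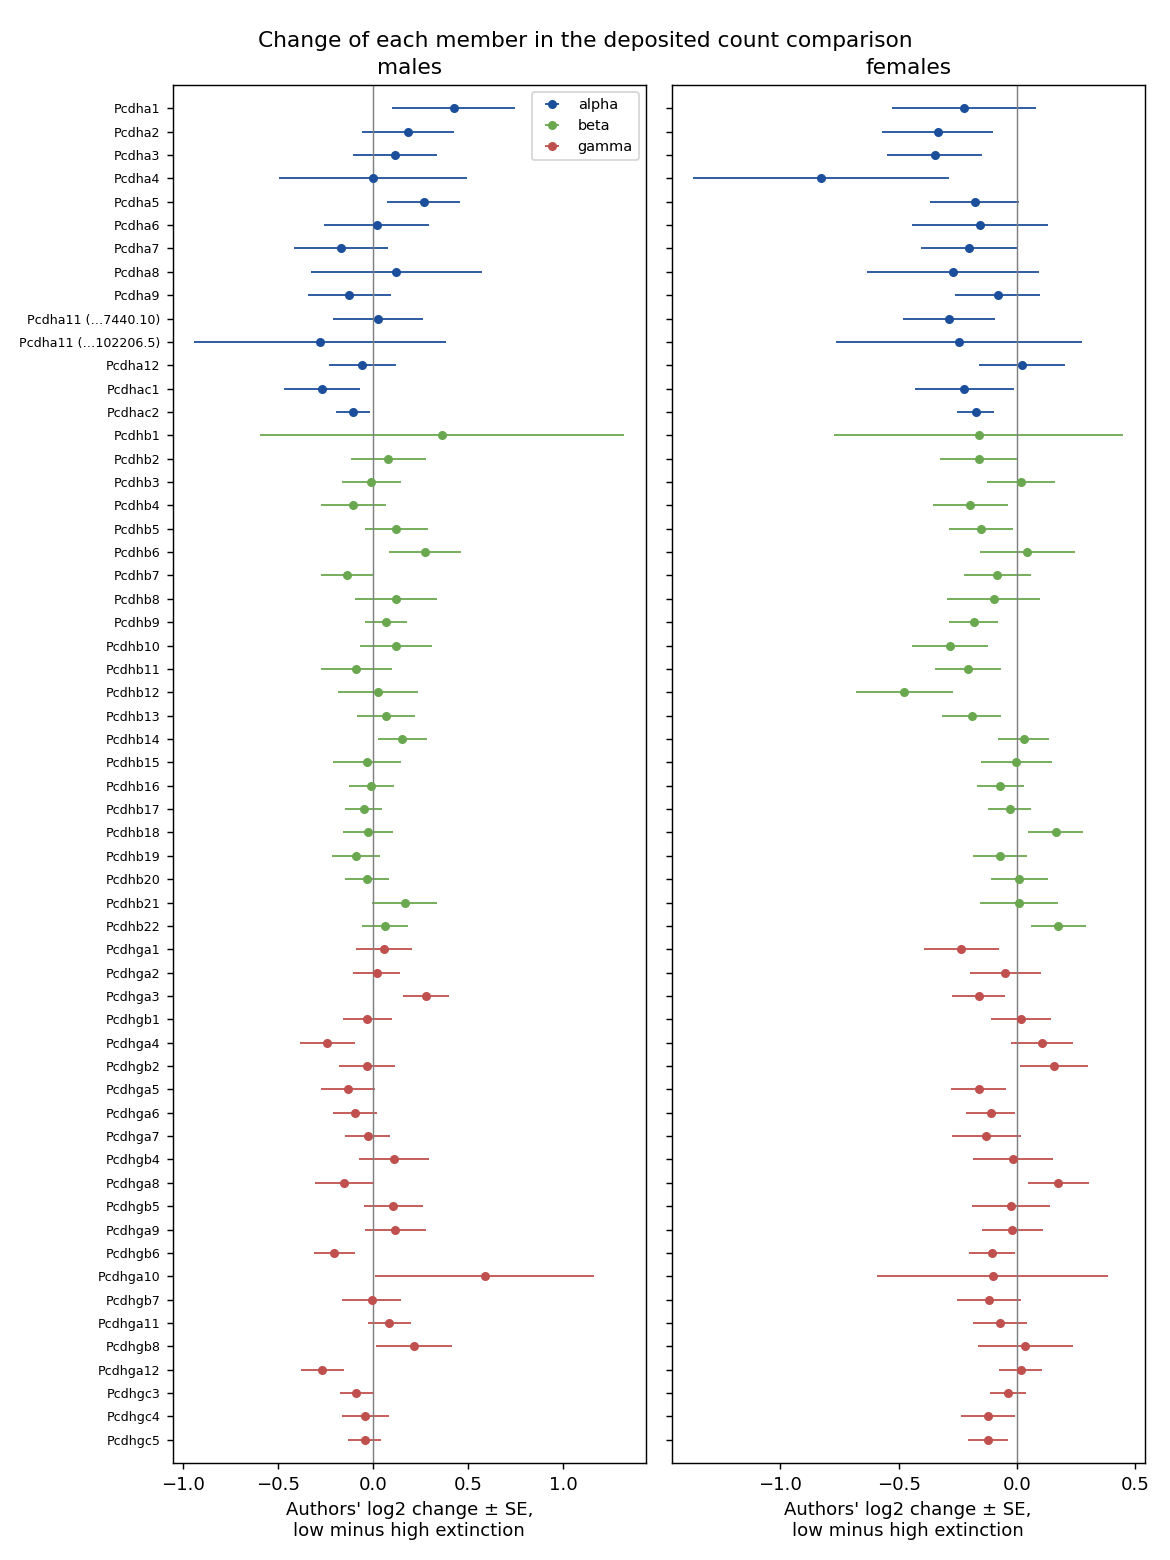
Log2 change of each member, low minus high extinction, in the authors' deposited table for males (left) and females (right), with bars of 1 standard error and members in chromosome order from the top. In females 13 of 14 alpha members and 44 of all 58 lie left of 0, in males 29 of 58 do, and none passed the adjusted threshold in either sex.

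Between the sexes, the deposited TPM were lower in males for all 21 tested beta members, with a median log2 difference (male minus female) of -0.15. The same difference was negative for 11 of 13 alpha members (median -0.07), for 17 of 22 gamma members (median -0.12) and for 78.5% of all 18499 genes (median -0.08). The summed beta cluster lay at 88.2 to 95.9 TPM in males and 97.7 to 109.7 TPM in females, without overlap, beside an AY036118 share of 7.14% to 14.998% in males and 4.39% to 9.00% in females, whose part in it was not tested. Only Pcdhb10 had all male libraries below all female libraries, at 2.42 to 3.03 TPM in males and 3.13 to 4.16 TPM in females, where the background was 1.37% of genes. No member had all males above all females, where the background was 0.0595%. The male and female tables were made separately, so sex and table cannot be told apart and no test was made.

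Of the 28 regulators of the clusters, 27 reached 1 TPM on average and none of them was called. Ctcf, whose protein binds the promoters and enhancers of the clusters, averaged 48.6 ± 1.74 TPM in low-extinction males, 47.1 ± 3.03 in high-extinction males, 51.8 ± 4.53 in low-extinction females and 47.2 ± 1.80 in high-extinction females (SD, n = 3 each). Rad21, a subunit of cohesin, lay between 61.4 and 80.9 TPM and Smchd1, a silencer of the clusters, between 16.1 and 20.2 TPM in all 12 libraries. Their log2 changes in the authors' deposited table lay between -0.0071 (Rad21 in females) and 0.05 (Smchd1 in females), with a lowest DESeq2 adjusted p of 0.879 (Smchd1 in females). Among these looping and chromatin regulators, limma called 0 of 27 tested in each of the 4 comparisons, and Dnmt3b, a DNA methyltransferase, was not tested at a mean of 0.604 TPM. In females 25 of the 27 were positive on TPM with a median of 0.11, beside the all-gene median of 0.06, against 15 positive and 12 negative (median 0.0067) in the authors' deposited table. In males 8 of 27 were positive on TPM, beside 7894 of all 18303 tested genes.

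Of 26 signalling partners and proteases of the protocadherin cytoplasmic domains, limma called 0 in each comparison, and 0 were called in either sex in the authors' deposited table. In females 17 of these 26 were positive on TPM, beside 12892 of 18668 genes. Only 6 of the 26 were positive for females in the authors' deposited table, beside 46.2% of 18275 genes at 1 TPM. Of 15 non-clustered protocadherins and Celsr genes, limma called 0 of 14 tested in each comparison. On TPM 3 of 14 were positive in males, beside 7894 of 18303 genes, and 8 of 14 in females, beside 12892 of 18668 genes. The authors' deposited table called Pcdh8, a protocadherin outside the clusters, in females and none of the 15 in males. The background there was 0.857% of genes in females and 0.504% in males. Pcdh8 had 34.7, 22.3 and 37.3 TPM in low-extinction females, against 37.2, 38.0 and 37.7 TPM in high-extinction females, and the groups overlapped. The authors' deposited table gave Pcdh8 a log2 change of -0.26 (SE 0.07, DESeq2 adjusted p = 0.0461) in females and -0.10 (SE 0.10, DESeq2 adjusted p = 0.985) in males.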

How the data were processed

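Polyadenylated RNA from the hippocampus of 12 mice was sequenced, per the labels' protocols. DESeq2, HTSeq, StringTie 1.3.3b, Bowtie2 and TopHat2 and the builds GRCm38.p5 and mm10 appear in the submitters' processing notes. Which tool made which table, the annotation release and the strand setting were not given in the sources used here. For each sex, TPM were deposited by the authors in a table of its own. Per the file headers, the authors also deposited DESeq2 results for each sex: the mean normalized count (a signal scaled for depth), the log2 fold change with its standard error, a test statistic (score), and the p-value before and after adjustment. The authors' log2 fold changes had correlations of -0.58 in males (17913 genes) and -0.46 in females (18275 genes) with the low-minus-high difference in TPM, and the opposite sign in 101 of 101 and 133 of 134 called genes, so they were multiplied by -1.

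Columns were matched to mice by the names in the labels. Replicate numbers only name the mice of a group. No libraries were identical (0 pairs), and across all genes any 2 libraries had a correlation of 0.989 to 0.992 on log2(TPM + 1). TPM keeps no depth, so no count test was run. Genes with a mean TPM of 1 or more entered the tests, on log2(TPM + 1), a scale that understates changes of low genes, with limma 3.58.1 (R 4.3.3) and a mean-variance trend, adjusted by Benjamini-Hochberg over all tested genes at 0.05. Fits were within sex for males and females, and over 12 libraries for the average and for the male change minus the female change. Single members had two-sided exact permutations within sex (20 assignments in a sex, 400 over both). The fit was checked on simulated data in which known changes were planted.

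Members named by rule were the 3 highest per cluster, the 5 C-type members, any called member, and per cluster the 2 with the smallest p on average and the 1 with the smallest for the difference between the sexes. All others were named after their values were seen. The members, the 3 gene lists and the markers were chosen with earlier results of these data known. Alternatives were other pseudocounts, filters, scalings, variance models and levels of 1 TPM, a joint fit, and each replicate left out. Gene structure came from GENCODE M21 on GRCm38, where 52403 of 52636 identifiers were found, 49035 of them in the same version. Tables and figures used Python 3.11.15, pandas 2.3.3, scipy 1.17.1 and matplotlib 3.10.9.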

Additional observations from a re-analysis of the deposited data

Results flagged for a closer look

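Pcdhga4 had opposite differences in the sexes. Low-extinction males had 0.180, 5.36 and 0.101 TPM, each below the 5.39, 5.97 and 5.85 TPM of the high-extinction males, while low-extinction females had 7.69, 6.16 and 6.39 TPM, each above the 0.277, 5.92 and 0.158 TPM of the high-extinction females. The male minus the female log2 change was -3.57 (SE 1.01, limma adjusted p = 0.49), and the adjusted p ran from 0.293 to 0.809 over the alternatives, so the difference did not pass the correction under any of them. In the authors' deposited table the log2 changes were -0.24 (SE 0.15) in males and 0.11 (SE 0.13) in females. The neighbouring Pcdhgb1, which shares 1038 exonic bases with Pcdhga4, was at 5.27 TPM or more in all 12 libraries. In the 4 libraries where Pcdhga4 was near 0, Pcdhgb1 had 9.61 and 91.1 TPM (low-extinction males) and 112.5 and 7.91 TPM (high-extinction females). The highest Pcdhgb1 value, 134.3 TPM in a low-extinction female, stood beside 6.39 TPM of Pcdhga4.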

How the results depend on the processing

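The number of members called in males was 0 to 1 when single libraries were left out, the 1 being Pcdhga4 without replicate 2 of the low-extinction males. In females it was 0 to 2, the 2 being Pcdhga4 and Pcdhga8 without replicate 2 of the high-extinction females. Both counts were 0 under the other alternatives run, and the counts for the average and for the difference between the sexes were 0 under each alternative run. The counts of 0 in the authors' deposited tables could not change, since the alternatives refit limma on TPM. Leaving out ribosomal RNA-derived genes raised the sums to 46.3 TPM (alpha), 109.0 TPM (beta) and 360.8 TPM (gamma), since the rest is rescaled to the same total. The number of members at 1 TPM on average was 56 with ribosomal RNA-derived genes left out and with each replicate left out, and 47 where a mean of 2 TPM, or 1 TPM in every library, was asked for. Average log2 changes turned sign for members close to 0: with single libraries left out, Pcdhb9 ran from -0.0568 to 0.0165, Pcdhb17 from -0.038 to 0.014, Pcdhb20 from -0.0241 to 0.0646 and Pcdhga4 from -0.37 to 0.46. Quantile normalization gave -0.0065 for Pcdhb20 and -0.0316 for Pcdhga4, and a pseudocount of 0.1 gave -0.0434 for Pcdhga4; the cause was not tested. Without the 5 members that end 3 bases earlier, an alternative chosen after seeing the data, the median average change of gamma members was -0.0007002, against 0.0179 with all 22. The other 14 members named by rule kept the sign of their average change. No paired analysis was possible because the labels give mouse names and no replicate numbers shared between groups. Mice were 3 per group, depth is unknown, and levels of members that share exons depend on how reads were divided.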

Other observations

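The steadiest members over the 12 libraries by highest over lowest TPM were Pcdhb16 (1.20), Pcdhb17 (1.24), Pcdhac2 (1.25), Pcdhgb6 (1.29) and Pcdhgb7 (1.32). They come from all 3 clusters. By subtype, with the 2 Pcdhac members left aside, the median member mean was 7.20 TPM for Pcdhga, 7.76 TPM for Pcdhgb, 27.9 TPM for the 3 Pcdhgc members, 4.05 TPM for Pcdhb and 1.84 TPM for Pcdha. Counts in the authors' deposited table, divided here by the kilobases of exon in no other gene, gave the same subtypes medians of 212.9, 142.5, 851.3, 92.8 and 57.7. The order of these 5 subtypes was the same by both measures except that Pcdhga and Pcdhgb changed places. The 2 Pcdhac members changed place as well, with a median of 7.37 TPM, between Pcdhga and Pcdhgb, and 277.1 counts per kilobase, above both.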
